A study of Mus musculus with 6 samples.

Results

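The EGF receptor family and its ligands were examined through 8 mouse genes: the receptors Egfr, Erbb2 and Erbb3, and the ligands Areg, Ereg, Hbegf, Tgfa and Btc. Their members were open-chromatin intervals. Each distinct interval in the peak lists of 6 ATAC-seq libraries was taken where it overlapped the annotated span of a gene in build mm10, or the 50 kb on either side of that span. This gave 1131 distinct intervals of 1085290 in all 6 lists. The receptors had 255 (Egfr), 172 (Erbb2) and 146 (Erbb3) intervals. The ligands had 94 (Areg), 115 (Ereg), 150 (Hbegf), 201 (Tgfa) and 53 (Btc), of which 55 lay in the windows of both Areg and Ereg.

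Receptors of this family sit in the cell membrane, bind a growth factor outside the cell, form pairs and phosphorylate one another, which starts the RAS-MAPK and PI3K relays. The ligands are made as membrane-bound precursors and are released by proteases at the cell surface. In urothelium, the epithelium that lines the bladder, EGF receptor signalling is known for its part in growth and in repair after injury.

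ATAC-seq inserts adapters into accessible DNA with a transposase, so that a peak marks open chromatin. The 3 Stag2-KO and 3 Stag2-WT libraries came from GFP+, DAPI- cells sorted from peeled urothelium of mice 1 week after TMX induction. The Stag2 protein belongs to cohesin, which shapes chromatin loops, and the study compared the genotypes for changes that follow its loss in resting urothelial cells. Both genotypes received TMX in the diet, 50000 cells were used per condition, and all libraries carry batch 1, per the labels. The labels do not name the Cre driver, the Stag2 allele or the number of animals per library. They call the libraries biological replicates, and the p-values here reflect the spread of these 6 libraries alone.

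The RefSeq promoter table matched 5 of the 8 genes. Those of Egfr, Erbb2, Areg and Btc are printed, because their last base touches the annotated start of the gene and the gene-end intervals described below lie on them. The start in the entry of Tgfa lies inside the annotated span of the gene, and it is not printed. Each line gives the 250 bases before the start of transcription, 5′ to 3′, from RefSeq, build GRCm38.p6, whose coordinates are those of mm10. They lie at chr11:16751953-16752202 on the plus strand (Egfr), chr11:98412234-98412483 on the plus strand (Erbb2), chr5:91139349-91139598 on the plus strand (Areg) and chr5:91402995-91403244 on the minus strand (Btc). Capitals mark matches to the motifs described after the lines.
Egfr: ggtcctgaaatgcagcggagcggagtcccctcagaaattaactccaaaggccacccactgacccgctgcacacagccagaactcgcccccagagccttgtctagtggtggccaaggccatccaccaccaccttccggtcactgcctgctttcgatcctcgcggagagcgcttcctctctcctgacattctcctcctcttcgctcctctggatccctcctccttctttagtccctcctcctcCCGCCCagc
Erbb2: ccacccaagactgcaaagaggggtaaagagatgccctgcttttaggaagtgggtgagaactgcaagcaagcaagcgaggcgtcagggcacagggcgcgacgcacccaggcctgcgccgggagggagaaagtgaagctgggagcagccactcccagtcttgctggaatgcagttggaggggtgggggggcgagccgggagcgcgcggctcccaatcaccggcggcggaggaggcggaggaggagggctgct
Areg: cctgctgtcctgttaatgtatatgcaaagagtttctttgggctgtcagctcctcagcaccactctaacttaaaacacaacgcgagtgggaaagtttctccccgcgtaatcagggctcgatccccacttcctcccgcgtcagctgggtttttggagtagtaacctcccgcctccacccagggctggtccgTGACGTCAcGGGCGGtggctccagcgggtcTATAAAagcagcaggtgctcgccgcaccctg
Btc: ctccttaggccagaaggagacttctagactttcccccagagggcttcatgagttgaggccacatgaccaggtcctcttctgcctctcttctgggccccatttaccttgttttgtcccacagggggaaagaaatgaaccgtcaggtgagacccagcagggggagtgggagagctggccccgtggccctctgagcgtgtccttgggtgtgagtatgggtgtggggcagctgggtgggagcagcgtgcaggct

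The letters searched on both strands were GGGCGG (the GC box), TATAAA (the common promoter element named after its first letters, the TATA box), TGACGTCA (CRE, the site of CREB-type factors), TGANTCA (AP-1 site) and TTTGAA (CHR element). Of 32851 promoters of this length, 32.7% held the GC box, 12.4% the TATA box, 1.55% the CRE, 6.75% the AP-1 site and 16.0% the CHR element. The Areg promoter held a CRE 61 to 54 bases before its start, a GC box at 52 to 47 and a TATA box at 31 to 26. The Egfr promoter held a GC box 9 to 4 bases before its start, and the Erbb2 and Btc promoters held none of the 5 motifs. The GC content was 60.8% in Egfr, 66% in Erbb2, 57.2% in Areg and 59.6% in Btc, against a median of 52.4% over all promoters. A match describes the letters in this window and shows no bound factor.

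The interval at each of these promoters was located by a summit, a base of locally highest signal. Each interval held 2 to 4 summits, and the one of highest fold is given. Positions are counted from the first transcribed base, and a minus sign means upstream. At Erbb2 the summits lay at −122, −108 and −118 in KO libraries and at −129, −119 and −124 in WT libraries. At Btc they lay at −71, −72 and −79 in KO and at −74, −71 and −79 in WT. The summits of both genes fell inside the printed stretches, close together in all 6 libraries. At Areg the summits lay at 187, −19 and −41 in KO and at −47, −30 and −50 in WT. In 4 of the 6 libraries the Areg summit thus lay in the stretch that runs from the CRE to the TATA box, and in KO replicate 1 it lay inside the gene. At Egfr the summits lay at 71, 100 and 665 in KO and at 647, 78 and 665 in WT, so that both genotypes held both positions.

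Values of different lists were compared by rank. Within each library the intervals were ranked by the authors' fold of a peak over its local background, with rank 1 for the highest fold, and the best 100000 were kept. A better rank means a higher fold relative to the other intervals of the same library. The log2 rank gain is the mean −log2 rank in KO minus that in WT, so that a positive gain means better ranks in KO. On this scale the same step in ranks counts for more near the top of a list. A library without an interval received the rank just past the end of the list. The best 100000 intervals held 662 of those in the 8 loci, which merged to 151 regions, and 9 of these lay in both the Areg and Ereg windows. Of the 151 regions, 116 had an interval in at least 3 libraries and were tested with limma over all 100553 tested regions. The other 35 had one in 1 or 2 libraries.

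The lower end of Stag2 itself, on chromosome X, held ranks of 16287, 20829 and 26328.5 in KO, against 29586, 34076 and 28720 in WT. Its gain was 0.57 ± 0.31 (limma adjusted p = 0.414), where ± gives the standard error of a gain over 3 libraries per genotype, here and below. Since this end may lie outside the deleted part, its peak is no check of the genotype. Intervals at gene ends made up 13.6% to 14.2% of the rank lists in KO and 13.3% to 13.5% in WT, and each KO library lay above each WT library. Of 18 urothelial markers, 16, 16 and 13 had an open gene end in the KO libraries and 13, 11 and 12 in the WT libraries. Ranked by −log10 p, 16 of 18 were open in each library. Of 20 markers of immune cells, endothelium, fibroblasts and smooth muscle, 11, 8 and 5 were open in KO and 10, 8 and 6 in WT. Trp63 and Gata3 were the urothelial markers with no interval at the end examined in any rank list by fold. Of the 6 immune markers only Csf1r was open, in all 6 libraries, and Ptprc and Cd3e had no interval there in any rank list. The median gain was 0.41 over 14 tested urothelial markers and −0.11 over 4 fibroblast markers. It was 0.30 over 2 smooth muscle and 0.21 over 2 endothelial markers, and 0.24 over all gene ends. Csf1r had a gain of −0.60 and ranked worse in each KO library than in each WT library. None of these markers was called by limma. The part of these differences in the gene-end results was not tested. Over the 116 tested regions of the 8 loci, KO replicate 3 had a median absolute difference in log2 rank of 0.42 and 0.43 to KO replicates 1 and 2, and of 0.31, 0.37 and 0.25 to WT replicates 1, 2 and 3. KO replicate 3 thus lay nearer to the WT libraries than to the other KO libraries. WT replicate 2 differed by 0.33 and 0.37 from KO replicates 2 and 3, and by 0.39 and 0.30 from WT replicates 1 and 3. KO replicate 3 was thus not the only library near the other genotype. Results that rest on KO replicate 3 are given without it where they change. Since it was singled out by these same ranks, a call, a larger gain or a lack of overlap found without it is no separate support.

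No region of the 8 loci passed the test in either direction. In the whole fit 0.0119% of the 100553 regions were called higher in KO and 0.00895% lower (limma, Benjamini-Hochberg adjusted p below 0.05), and 0 of the 116 regions here were called, with a smallest adjusted p of 0.228. At an unadjusted p below 0.05, 12 of the 116 regions were higher in KO and 4 lower, against 6.96% and 7.84% of all regions. Every KO rank was better than every WT rank in 19 of the 116 regions, against 11.4% of all regions, and every KO rank was worse in 4, against 8.18%. The gain was positive in 69 and negative in 47 regions, and 51.5% of all gains were positive. The median gain was 0.12 over the 116 regions and 0.02 over all regions. With a replicate block in the fit, 0.0159% of all regions were called in each direction and still 0 of the 116. Without KO replicate 3, 0.889% of all regions were called higher and 1.68% lower, and 1 region of the 8 loci was called, lower in KO, at Btc. A worse rank from fewer cells with a region open and one from less access per cell cannot be told apart in these pools of cells.

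**Figure D1:**
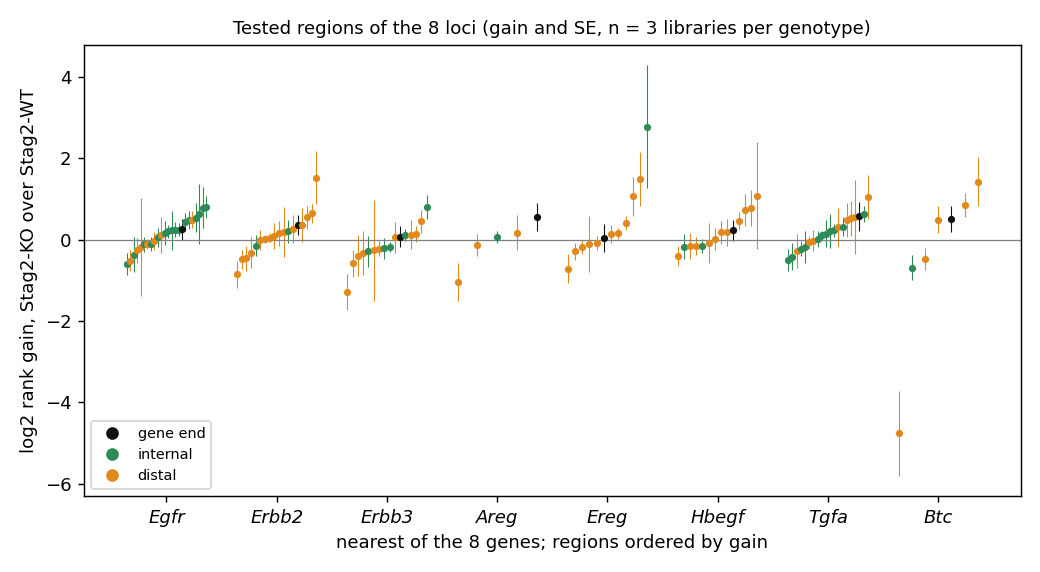
The log2 rank gain of each of the 116 tested regions, Stag2-KO over Stag2-WT, is plotted with its standard error (3 libraries per genotype), by the nearest of the 8 genes and ordered by gain. Most gains lie near 0, and the region farthest from 0 is the distal region at Btc, with a gain of −4.77 ± 1.04.

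The position of a region in its locus went with its size and its sharing between libraries. Gene-end regions (within 500 bp of an end of the gene) were 9, and 8 of them were present in all 6 libraries, with a median width of 941 bp. Internal regions were 49, with 18 in all 6 libraries and a median width of 390 bp. Distal regions were 93, with 50 in all 6 and a median width of 400 bp, and 14 of these lay at an end of another gene. Among regions present in all 6 libraries, the median rank of each region was taken per genotype. The median of these values at gene ends was 39537 in KO and 47060.5 in WT. That of internal regions was 31267.8 in KO and 30572 in WT, and that of distal regions was 22986.5 in KO and 21582.2 in WT. By these medians, distal regions that every library shared held better ranks by fold than the genes' own ends. The classes were not compared by −log10 p. The median gain was 0.30 at gene ends, 0.12 at internal and 0.05 at distal regions.

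All 8 genes had an open end in all 6 libraries. The 5′ end was used for Egfr, Erbb2, Areg, Tgfa and Btc, whose strand the RefSeq table gives, and the better-ranked end for Erbb3, Ereg and Hbegf. None of the 8 gene ends was called, and over all genes 0.0311% of 12874 tested gene ends passed with a positive gain and 0.0621% with a negative one (limma, Benjamini-Hochberg adjusted p below 0.05). At an unadjusted p below 0.05 none of the 8 passed, against 11.7% of all gene ends higher and 1.62% lower. The gain was positive at all 8, as it was at 71.5% of all gene ends. Its median was 0.30, and 0.24 over all gene ends. Every KO rank was better than every WT rank at 4 of the 8 ends, those of Erbb2, Areg, Tgfa and Btc, and at 16.5% of all gene ends. Every KO rank was worse at 0 of the 8, against 1.5% of all gene ends. Ranked by −log10 p the gain was again positive at all 8, against 73.2% of all gene ends. By that ranking every KO rank was better at 2 of the 8, Hbegf and Btc, against 11.4% of all gene ends. None of the 8 was then called, while 0.0462% of all gene ends were called higher and 0.0771% lower, and 1 of the 8, that of Tgfa, passed at an unadjusted p below 0.05, against 14.5% of all. Without KO replicate 3 still 0 of the 8 were called, although 6.53% of all gene ends were called higher and 0.722% lower. Without KO replicate 1 the gain was 0.19 at Erbb2, 0.33 at Tgfa and 0.31 at Btc, each over 1.5 times smaller than with all 6 libraries.

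**Figure D2:**
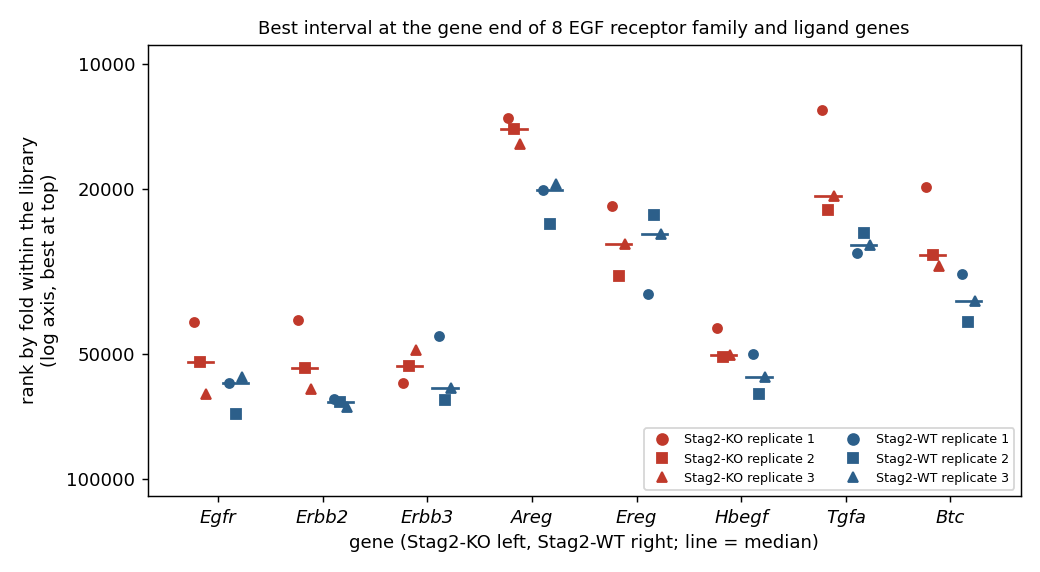
The rank by fold of the best interval within 500 bp of the end of each gene is shown for each library on a log axis with the best rank at the top, with Stag2-KO left and Stag2-WT right of each gene and lines at the medians. Areg and Tgfa hold the best ranks, and the genotypes do not overlap at Erbb2, Areg, Tgfa and Btc.

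Egfr is the receptor of EGF and of the ligands Areg, Ereg, Hbegf, Tgfa and Btc. Its 5′ end had ranks 41925, 52370 and 62486 in KO libraries and 58839, 69581 and 56922 in WT libraries. The genotypes overlapped, since KO replicate 3 ranked worse than WT replicates 1 and 3 (gain 0.25 ± 0.23, limma adjusted p = 0.626). Without KO replicate 3 the genotypes did not overlap and the gain was 0.39 (limma adjusted p = 0.282), and it was 0.11 without KO replicate 1 and 0.17 without WT replicate 2. Inside the gene the best region, chr11:16830562-16831161, ranked 1315, 3098 and 1255 in KO and 2015, 5144 and 1830 in WT. Replicate 2 ranked worst in both genotypes there, and the gain was 0.63 ± 0.73 (adjusted p = 0.682). KO ranked better within each same-numbered pair, and with a replicate block the gain was 0.63 ± 0.47 (limma adjusted p = 0.436). By −log10 p its sign turned, to −0.63.

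A second internal region of Egfr, chr11:16769231-16769612, had the second smallest p of the positive gains. It ranked 36752, 34567 and 36445 in KO and 67862, 54013 and 66279 in WT. The 3 KO libraries lay close together and above each WT library, with a gain of 0.80 ± 0.27 that was not called (limma adjusted p = 0.272). The authors' fold there was 10.8, 15.5 and 10.9 in KO and 5.53, 11.2 and 6.59 in WT, so that KO replicates 1 and 3 were below the fold of WT replicate 2 while ranking better in their own lists. Ranked by −log10 p the gain was 0.86 (adjusted p = 0.238), and it stayed between 0.74 and 0.90 when any 1 library was left out. Over the locus Egfr had 35 regions, of which 24 were tested, 15 with a positive and 9 with a negative gain (median 0.19). The best distal region, chr11:16951023-16951681, lay 37116 bp beyond the span at an end of Fbxo48 and ranked 225, 2293 and 316 in KO and 220, 965 and 525 in WT, with overlapping genotypes.

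Erbb2, the receptor that binds no known ligand itself and pairs with the others, had its 5′ end at ranks 41372, 54120 and 60646.5 in KO and 64056, 65135 and 67239 in WT. Each KO library ranked better than each WT library, by a gain of 0.35 ± 0.22 (limma adjusted p = 0.479). In the ranking by −log10 p the genotypes overlapped, at 25231, 27489 and 41918 in KO and 46125, 37356 and 47742 in WT. Inside the gene the best region, chr11:98418725-98419623, ranked 36794, 45679 and 35176 in KO and 41467.5, 50047 and 43114 in WT, with overlapping genotypes (gain 0.20 ± 0.28). Erbb2 lies among close neighbours, and its window took in Stard3, Tcap, Pnmt, Pgap3, Mien1, Grb7 and Ikzf3.

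The best distal region of the Erbb2 window, chr11:98438378-98439210, lay 662 bp past the span and inside Mien1. It ranked 2744, 6520 and 3843 in KO and 4939, 7948 and 2631 in WT, and WT replicate 3 was best of all 6. A region at an end of Pnmt, chr11:98386587-98387025, ranked 60014, 45931 and 55637 in KO, against 68732 and 84941 in WT replicates 2 and 3 and 107461 in the whole list of WT replicate 1, past the best 100000. All KO libraries ranked better there (gain 0.64 ± 0.23, limma adjusted p = 0.281). The reverse held inside Stard3, at chr11:98372440-98372808, with ranks 86620, 51256.5 and 48685 in KO and 36462, 24417 and 40982.5 in WT (gain −0.86 ± 0.34, limma adjusted p = 0.302). Of the 18 tested regions of this locus 12 had a positive and 6 a negative gain (median 0.12).

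Erbb3, a receptor with little kinase activity of its own that recruits PI3K once paired, had the gene end with the smallest difference among the receptors. Its upper end ranked 58705.5, 53390 and 48927 in KO and 45167, 64370 and 60479 in WT. The genotypes overlapped, with WT replicate 1 best of all (gain 0.07 ± 0.23, limma adjusted p = 0.920). The best internal region, chr10:128584408-128584797, also overlapped, with ranks 25032, 31707 and 20546 in KO and 13849, 29515 and 21752 in WT (gain −0.29 ± 0.39).

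The distal region chr10:128612680-128613356, 23045 bp from Erbb3 and at no gene end, had the second smallest p of the negative gains. It ranked 53825, 27931.5 and 18000.5 in KO and 14257, 13182.5 and 10045 in WT. All KO libraries ranked worse than all WT libraries, KO replicate 1 farthest (gain −1.28 ± 0.45, limma adjusted p = 0.279). By −log10 p the genotypes overlapped, with KO replicate 3 at 33047.5 and WT replicate 2 at 34248.5, and the gain was −0.67. The best distal region of the locus, at an end of Rps26 (chr10:128626684-128627143), ranked 3414, 3615 and 199 in KO and 371, 3285 and 1168 in WT, with the best and the worst rank both in KO. Erbb3 was the only one of the 8 loci with a median gain below 0, at −0.20 over 16 tested regions, 7 with a positive and 9 with a negative gain.

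Amphiregulin (Areg), a ligand of EGFR, had with Tgfa the best-ranked gene ends of the 8. Its 5′ end, with the CRE and TATA box shown above, ranked 13532, 14352 and 15626 in KO and 20165, 24333 and 19445 in WT. The KO libraries lay close together and each ranked better than each WT library (gain 0.55 ± 0.34, limma adjusted p = 0.472). Ranked by −log10 p the genotypes overlapped, at 12503, 8640 and 14720 in KO and 18616, 14201 and 15122 in WT. The best distal region among those nearer to Areg than to Ereg, chr5:91156714-91157161, lay 8282 bp past the gene and pointed the other way, with ranks 35648, 31531.5 and 12081 in KO and 13373.5, 8819.5 and 13264 in WT. KO replicates 1 and 2 were the worst there and KO replicate 3 lay among the WT libraries (gain −1.04 ± 0.48, limma adjusted p = 0.341). Inside the gene the best region, chr5:91144896-91145344, had an interval among the best 100000 of 2 KO libraries and 1 WT library. In the whole lists it also stood at rank 146673 in KO replicate 3 and 124506 in WT replicate 3.

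Epiregulin (Ereg), a ligand of EGFR encoded next to Areg, had its lower end at ranks 21993, 32536 and 27139 in KO and 35939, 23163.5 and 25713 in WT, with overlapping genotypes (gain 0.05 ± 0.30, limma adjusted p = 0.961). The region with the best ranks of all 8 loci lay inside Ereg, at chr5:91082992-91083445. It ranked 19, 166 and 86 in KO and 1302, 229 and 291 in WT, near the top of the list in each library and worst in WT replicate 1. Each KO library ranked better than each WT library (gain 2.77 ± 1.52, limma adjusted p = 0.399). The authors' fold was 45.2, 47.2 and 36.3 in KO and 24.95, 44.2 and 32.9 in WT, and WT replicate 2 had a higher fold than KO replicate 3 while ranking worse in its own list. By −log10 p it ranked 803, 3530 and 1773 in KO and 5901, 2482 and 3102 in WT. The genotypes then overlapped, and the gain was 1.06 ± 0.54.

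Some distance away, 35573 bp beyond the lower end of Ereg, the distal region chr5:91038599-91039044 ranked 779, 1609 and 1519 in KO and 2881, 4529 and 3169 in WT. All KO libraries ranked better (gain 1.48 ± 0.66, limma adjusted p = 0.336). By −log10 p the gain was 0.30 ± 0.39 and the genotypes overlapped. Between Ereg and Areg, the region chr5:91111105-91111452 had an interval in the 3 KO rank lists, at ranks 65329, 67020.5 and 96053, and in none of the WT rank lists. Such a pattern occurred in 2 regions of the 8 loci and the reverse in 0, against 1.38% and 1.23% of all tested regions. In the whole lists the WT libraries did hold this region, at ranks 141547, 107224 and 142946, so it was listed in WT too, at worse ranks.

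**Figure D3:**
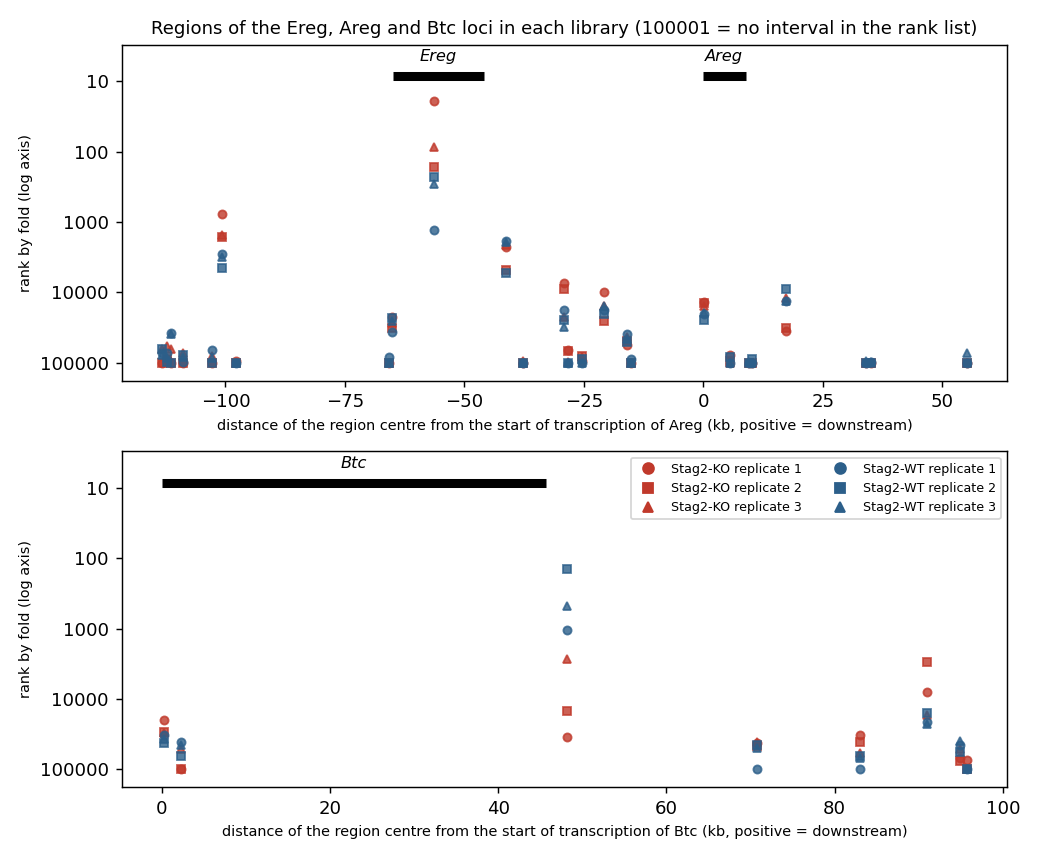
Ranks by fold (log axis, best at top) of the regions of the Ereg and Areg loci (upper) and the Btc locus (lower) are plotted against the distance of the region's centre from the start of transcription of Areg or Btc in kb, with 1 point per library and black bars for the genes. The region inside Ereg holds ranks of 19 to 166 in KO, and the region 2073 bp past the 3′ end of Btc holds ranks of 139 to 1030 in WT.

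Heparin-binding EGF-like growth factor (Hbegf), a ligand of EGFR and ERBB4, had its upper end at ranks 43202, 50856 and 50186 in KO and 49897, 62436 and 56941 in WT. The genotypes overlapped by WT replicate 1 (gain 0.23 ± 0.22, limma adjusted p = 0.652). With −log10 p as the ranking they did not overlap, at 11060, 9685 and 14862 in KO and 19053, 15589 and 18273 in WT, a gain of 0.59 that was not called (adjusted p = 0.295). The best internal region, chr18:36513877-36514488, ranked 36441, 54133 and 43992 in KO and 29769, 47226 and 43116 in WT (gain −0.17 ± 0.31). The best distal region, chr18:36460926-36461219, ranked 2620, 327 and 1252 in KO and 9139.5, 235 and 4724.5 in WT, with replicate 2 best in both genotypes.

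Transforming growth factor alpha (Tgfa), a ligand of EGFR, had its 5′ end at ranks 12960, 22485.5 and 20823 in KO and 28618, 25635 and 27361 in WT. Each KO library ranked better than each WT library (gain 0.58 ± 0.33, limma adjusted p = 0.440). By −log10 p the ranks were 4128, 4497 and 13225 in KO and 21080, 7137 and 16090 in WT. WT replicate 2 then ranked better than KO replicate 3, and the gain was 1.10 ± 0.50 (limma adjusted p = 0.263). The summits at this end lay 61, 65 and 54 bases inside the annotated start in KO, and 39, 53 and 51 bases inside it in WT.

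Inside Tgfa, chr6:86235621-86235915 had the smallest p of all positive gains of the 8 loci. It ranked 48028, 74553 and 69099 in KO, against 92713 in WT replicate 3 and no interval among the best 100000 of WT replicates 1 and 2. The gain of 0.64 ± 0.20 was not called (limma adjusted p = 0.269). Ranked by −log10 p it was 0.76, and the WT libraries then held ranks of 58762 to 83196, against 30351 to 47319 in KO. The second KO-only region, chr6:86222407-86222644, ranked 98019, 90660 and 89078 in KO and 124774, 103400 and 113875 in the whole WT lists, just past the limit of 100000. The best internal region, chr6:86219342-86220064, had overlapping genotypes, at 16717, 23552 and 11155 in KO and 17861, 25158 and 15220.5 in WT. The best distal one, chr6:86318562-86319411, ranked 719, 1140 and 395 in KO and 605, 1940 and 860 in WT. Tgfa had 20 tested regions, 13 with a positive and 7 with a negative gain (median 0.18).

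Betacellulin (Btc), a ligand of EGFR and ERBB4, had its 5′ end at ranks 19770, 28888 and 30619 in KO and 32165, 41788 and 37180 in WT. All KO libraries ranked better (gain 0.50 ± 0.29, limma adjusted p = 0.435), also by −log10 p, at 17181, 17492 and 22869 in KO and 25305, 24909 and 26114 in WT. The region just inside the gene, chr5:91400526-91400796, pointed the other way, with rank 50459.5 in KO replicate 3, rank 134702 in the whole list of KO replicate 2 and no interval in the list of KO replicate 1, against 41333, 64024 and 45266 in WT (gain −0.69 ± 0.31, limma adjusted p = 0.338).

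On the log2 rank scale, the largest difference of the 8 loci was distal, 2073 bp past the 3′ end of Btc, at chr5:91354553-91355188. The region ranked 34715, 14509 and 2722.5 in KO and 1030, 139 and 475 in WT, so that all KO libraries ranked worse than all WT libraries and KO replicate 3 was nearest to WT. The gain was −4.77 ± 1.04, with the smallest p of the 116 regions, and was not called (limma adjusted p = 0.228). The authors' fold was 11.2, 24.9 and 26.4 in KO and 25.6, 45.3 and 31.8 in WT. It overlapped between genotypes, by KO replicate 3 and WT replicate 1. By −log10 p the ranks were 48449, 34270 and 17063.5 in KO and 11965, 12354 and 10267 in WT. They still did not overlap, and the gain was smaller, at −1.41 ± 0.36 (adjusted p = 0.238).

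Without KO replicate 3 the Btc distal region was called (limma adjusted p = 0.0402), in a fit where 1.68% of all regions were called lower. That library was singled out by ranks that included this region, so the call is no separate support. With any 1 library left out the gain of the Btc distal region was −5.78 to −3.94. With a replicate block its adjusted p was 0.0899, and with the gene-end share of each library as a covariate its gain was −2.49. That share was higher in each KO library than in each WT library, so the covariate fit can hardly separate it from genotype. Btc had the fewest regions of the 8 loci, 8 in all and 5.49 per 100 kb, against 13.3 to 18.0 per 100 kb in the others. Of its 7 tested regions 4 had a positive and 3 a negative gain.

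**Figure D4:**
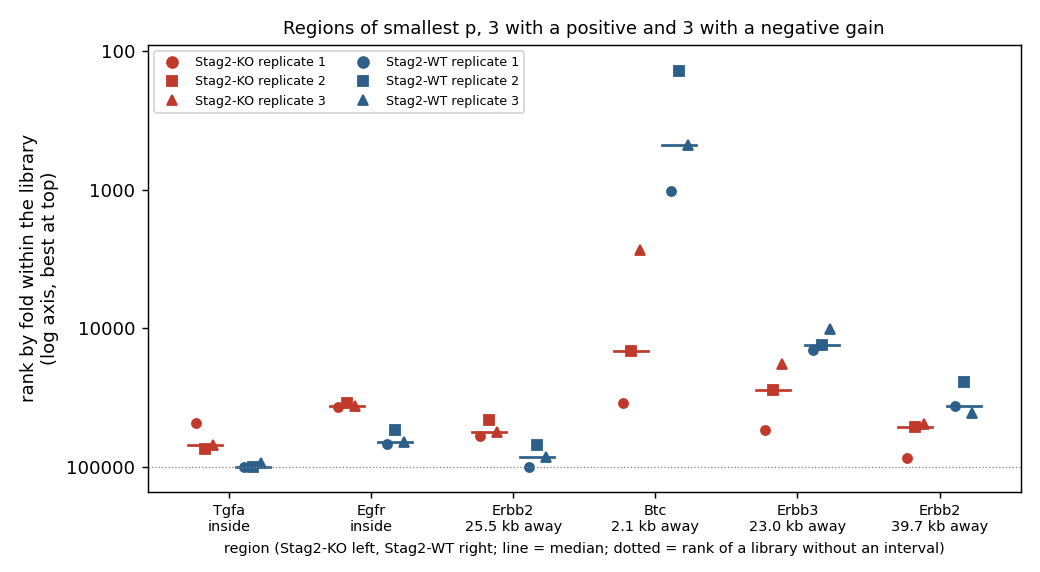
Ranks by fold (log axis, best at top) of the 3 regions of smallest p with a positive gain and the 3 with a negative gain, per library, with Stag2-KO left and Stag2-WT right, lines at the medians and a dotted line at the rank given to a library without an interval. The genotypes do not overlap in any of the 6, which were chosen by p, and none was called after adjustment.

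The number of open intervals per locus among the best 100000 of a library was compared with a two-sided exact permutation test, whose smallest p for 3 against 3 is 0.1. Over the 8 loci the libraries had 112, 106 and 124 intervals in KO and 110, 110 and 113 in WT (exact permutation p = 0.8). Hbegf had 17, 17 and 16 in KO and 14, 14 and 14 in WT, and Tgfa had 20, 19 and 21 in KO and 18, 18 and 17 in WT. These were the 2 loci without overlap between genotypes, each at the smallest p the exact permutation test allows (p = 0.1, Benjamini-Hochberg adjusted over the 8 loci 0.4). Of the same windows around 19506 protein-coding genes, 5.59% had more intervals in every KO library than in every WT library and 2.41% had fewer. In the whole lists both loci overlapped, with 30, 31 and 23 intervals in KO and 18, 26 and 27 in WT at Hbegf, and 52, 35 and 28 in KO and 27, 33 and 28 in WT at Tgfa. With rank lists of 50000 the mean difference, KO minus WT, was −1 at Hbegf and 0 at Tgfa. Egfr had 23, 20 and 25 in KO and 26, 24 and 23 in WT, and Erbb3 had 13, 13 and 18 in KO and 16, 14 and 17 in WT, with overlap in both. The regions nearest the limit of 50 kb are given for Tgfa, where the last one inside lay 49941 bp away, with median ranks of 14157 in KO and 20711 in WT. The first one outside lay 50992 bp away, with median ranks of 47006 in KO and 44560 in WT.

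**Figure D5:**
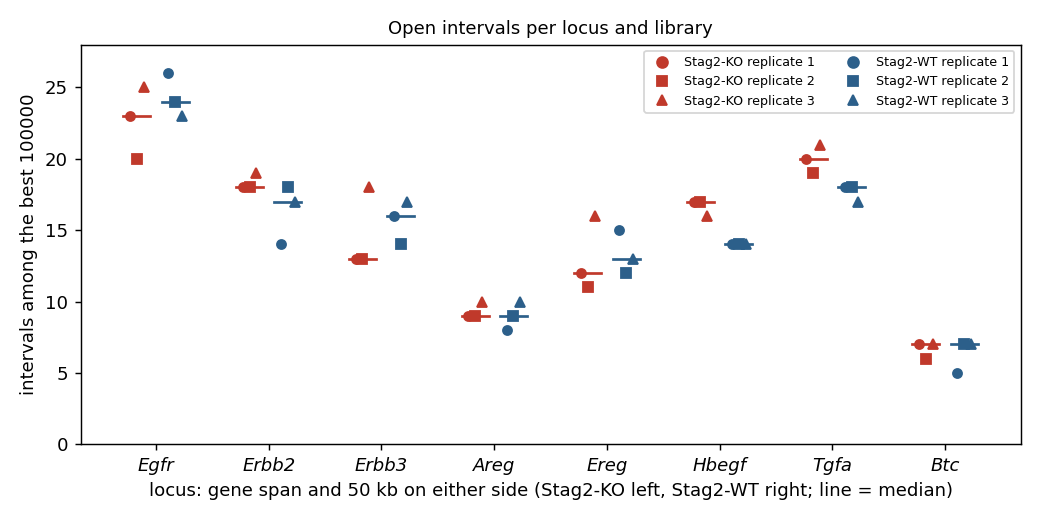
The number of intervals among the best 100000 of each library in the span of each gene and the 50 kb on either side is plotted per library, with Stag2-KO left and Stag2-WT right and lines at the medians. The genotypes do not overlap at Hbegf (16 to 17 in KO, 14 in WT) and Tgfa (19 to 21 in KO, 17 to 18 in WT).

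The rest of the pathway was read at gene ends, from lists of 52 further genes, of which 48 were tested. None was called in either direction by limma. At an unadjusted p below 0.05, 5 were higher in KO and 0 lower, against 11.7% and 1.62% of all gene ends. Of the 48, 32 had a positive and 16 a negative gain by fold rank, and the median gain was 0.13, against 0.24 over all gene ends. Of 7 other receptors and ligands of the family, 6 were tested, 4 with a positive and 2 with a negative gain (median 0.15). Nrg4, a neuregulin that binds ERBB4, had the smallest p of the positive ones, with ranks 35648, 43877 and 49912.5 in KO and 80191, 42132.5 and 74245.5 in WT (gain 0.56, limma adjusted p = 0.384). Epgn, the EGFR ligand epigen next to Ereg, had a negative gain, with ranks 89328, 87858 and 57151.5 in KO and 37785.5, 96983 and 38652 in WT (gain −0.55, limma adjusted p = 0.452). The genotypes overlapped at both. Nrg1, a ligand of ERBB3, had no interval at its ends in the 100000 best of any library.

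Of the 20 relay genes, from receptor adaptors to RAS-MAPK and PI3K, all were tested, 15 with a positive and 5 with a negative gain (median 0.23). Braf, a kinase of the RAS-MAPK relay, ranked 12561, 24419 and 26802 in KO and 31784, 37828 and 41337 in WT, without overlap (gain 0.87 ± 0.34, limma adjusted p = 0.335). Sos2, an exchange factor of RAS, had a gain of −0.63 ± 0.36 (limma adjusted p = 0.444). Of 16 inhibitors and genes of receptor turnover 14 were tested, 9 with a positive and 5 with a negative gain (median 0.11). The smallest p were at Lrig3, of a family of receptor regulators (gain 0.60 ± 0.24, limma adjusted p = 0.337), and at Cbl, the ubiquitin ligase of EGFR (gain −0.60 ± 0.53, adjusted p = 0.619). Of the 4 genes of ligand shedding 3 were tested, with 2 positive gains, among them the protease gene Adam10 (0.23), and 1 negative, that of Rhbdf1 (−0.14). All 5 transcriptional targets were tested, 2 with a positive and 3 with a negative gain (median −0.01), from Phlda1 (0.35 ± 0.26) to Etv5 (−0.30 ± 0.56). These medians depended on the ranking. By −log10 p the median gain was 0.60 for shedding and 0.49 for relay genes, against 0.33 over all gene ends. It was 0.28 for inhibitors and turnover, 0.18 for the other receptors and ligands and −0.02 for targets.

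Gene ends with ranks most like those of the receptors were found by the root mean square difference of −log2 rank over the 6 libraries. Nearest to Egfr were Arl4c (0.0862) and Ppia (0.0907), to Erbb2 Thbs1 (0.0629) and Adssl1 (0.0638), and to Erbb3 Fbxl14 (0.0953) and Git1 (0.0994). Areg, the ligand gene with the best mean rank, was nearest to Exo5 (0.0844) and Cyp4v3 (0.119).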

How the data were processed

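ATAC-seq peak lists of 3 Stag2-KO and 3 Stag2-WT libraries were used, grouped by the genotype in the labels. The member genes, windows and gene lists were chosen with earlier results of these data known. Per the submitters' processing notes the build was mm10, and DiffBind is named there. An aligner, a peak caller or a version is not given in the sources used here. Each library had its own list. Per narrowPeak column, the authors deposited a ratio (the fold of a peak over background), a −log10 p-value, a −log10 q-value and a display score, which was not used. The per-peak values are the authors' own. They depend on depth, which no label states, so they served only to rank, describe or filter peaks within a list. The lists held 149153 to 260462 distinct intervals, and that of KO replicate 1 began at a −log10 p of 3.00, the others at 2.00. The names of the lists read as de-duplicated reads without mitochondrial ones, Tn5-adjusted positions, a p threshold, a limit on how many peaks were kept and a filter; the limit can hide weak peaks of a deep library.

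Peaks sharing an interval were reduced to the highest fold, ranked with average ranks for ties and cut at rank 100000, since lists of unequal length give unequal ranks. The lowest fold in the cut lists was 3.93 to 4.47 in KO and 3.65 to 5.30 in WT. Intervals overlapping by at least 1 bp were merged. Regions, or the ends of protein-coding genes (500 bp on either side), with an interval in at least 3 libraries were compared on −log2 rank with limma 3.58.1 (trend, moderated variances; R 4.3.3) and Benjamini-Hochberg adjustment at 0.05 over all of them. Gene spans came from RefSeq, GRCm38.p6, without exons. Interval counts were tested by exact permutation, two-sided. Python 3.11.15, NumPy 2.4.6, pandas 2.3.3, statsmodels 0.14.6 and matplotlib 3.10.9 were used, and the steps were tested on simulated data. Ranks carry no overall level, so a change common to most regions would not show.

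Named regions were, per gene, the gene end and the best-ranked internal and distal region, the 3 regions of smallest p per direction, and those found in each rank list of 1 genotype while absent from the other's. For each pathway list the gene of smallest p per direction is named. Same-numbered KO and WT libraries deviated together from their group means, with correlations of 0.105, 0.557 and 0.401 over 100553 regions. KO replicate 3 and WT replicate 1 also did (0.318), more than the pair numbered 1. The other unlike-numbered pairs had 0.031 and −0.213 to −0.513. Deviations from a group mean cancel within a genotype, so correlations of both signs arise by construction. The labels give only shared numbers, so the pairing rests on these data and is unclear for number 1. Alternatives were ranking by −log10 p, rank lists of 50000 and 140000, linear ranks, a −log10 q of at least 2, other peak requirements, an overlap of 50%, 1000 bp at gene ends, 25 kb windows, the gene-end share of each library as a covariate, a replicate block and leaving out each library.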

Additional observations from a re-analysis of the deposited data

How the results depend on the processing

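No region of the 8 loci was called under any alternative except without KO replicate 3, and the count was 0 to 1 when 1 library was left out. None of the 8 gene ends was called under any. Over all regions 21 were called. The count was 52 by −log10 p, 4 with rank lists of 50000 and 40 with 140000, 0 with a peak in all 6 libraries and 1 with a peak in at least 1, 0 with each library's gene-end share as covariate, 32 with a replicate block, and 2 to 2423 without 1 library, the highest without KO replicate 3. Over all gene ends 12 were called, 5 with rank lists of 50000, 2 with the covariate, 5 with 1000 bp windows, and 0 to 923 without 1 library (923 without KO replicate 3, 355 without WT replicate 2). The replicate block changed no other call.

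Of 346 alternative values of named regions, 325 kept direction and side of the threshold, 20 turned direction and 1 passed the threshold. By −log10 p, the best internal Egfr region turned to −0.63 and the best distal Tgfa region to −0.60. The gene-end share was higher in each KO library than in each WT library, so a fit with it can hardly separate share from genotype. Calls and gains from that fit are therefore no check of the genotype difference. The covariate also left few degrees of freedom. With it, gains turned at Erbb3 internal (0.49) and Rps26-end (4.80), Egfr Fbxo48-end (2.25) and gene-end (−0.038), Hbegf distal (−1.41) and internal (0.085), the KO-only Ereg (−0.14), Areg internal (−0.20) and distal (0.31) and Btc internal (0.51) regions. Without 1 library, gains spanned −1.64 to 0.54 at the Rps26 end, −0.18 to 0.61 in Mien1, −0.82 to 0.85 at the Fbxo48 end, −0.064 to 0.48 at Tgfa internal, −0.31 to 0.027 at Hbegf internal, and at gene ends −0.14 to 0.18 (Ereg) and −0.034 to 0.22 (Erbb3).

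For intervals per locus, the KO minus WT difference turned with rank lists of 50000 (Egfr 1.67, Hbegf −1, Btc −0.33) and 140000 (Areg −1.67), with whole lists (Erbb3 2.33, Areg −3), with 25 kb windows (Areg −0.67, Ereg 1.67, Btc −0.33) and by −log10 p (Areg −0.67, all loci −1). Without 1 library it spanned −1.83 to 0.67 (Ereg), −0.17 to 0.83 (Areg), −0.33 to 0.67 (Btc) and −2 to 7 (all loci). The cause of these turns was not tested. A −log10 q of at least 2 changed nothing, since the lowest −log10 q in a rank list was 8.28. Depth is not given in the sources used here, and an interval that is not listed may have been too weak at that depth or removed by the limit or filter of the list.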
